A study of Homo sapiens with 6 samples.

Results

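The genes described here are 37 protein-coding genes that lie at loci linked to risk of atopic dermatitis in genetic association studies, out of 19974 protein-coding genes on the autosomes and X in the RefSeq table. They were taken as a list of names, by a rule that uses no measured value, although the list was drawn up with earlier results of these data known. For each gene, the regions bound by the transcription factors FOSL2 and JUNB were collected from its gene body and 100 kb on either side. That window held 279 of 75703 FOSL2 regions and 157 of 40061 JUNB regions, each counted once where the windows of neighbouring genes overlapped. After such overlaps were merged, the 37 windows formed 23 stretches of the genome.

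The regions came from ChIP-seq of HaCaT cells, an immortalised human skin keratinocyte line, with 3 libraries immunoprecipitated with an antibody to FOSL2 and 3 with an antibody to JUNB. The labels name no genotype, treatment or time that differs between the libraries; they say only that the cells were grown in culture. The list of each factor stood for its 3 libraries together, so no spread between replicates, no depth per library and no test could be given, and every comparison below is a description of 2 lists. Because the antibodies and the lists differed between the factors, a longer FOSL2 list cannot be told apart from better recovery by its antibody. Binding is given by position and not by effect: a region near a gene is not evidence that the gene is regulated through it, and no expression was measured.

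FOSL2 belongs to the FOS family and JUNB to the JUN family of basic leucine zipper proteins. FOS proteins bind DNA as dimers with JUN proteins, forming the AP-1 complex, which recognises short near-palindromic motifs of the kind TGANTCA. AP-1 acts downstream of growth factor, stress and cytokine signalling, and in the epidermis it takes part in keratinocyte differentiation and inflammation. Atopic dermatitis joins a weakened skin barrier with type 2 inflammation, and many of its risk loci hold genes known from lymphocytes, so HaCaT cells show only the keratinocyte side of these loci.

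Some start windows that carried or lacked the motif are shown first. In 3 members it lay under a region of both factors, and others had a region of 1 factor without it. Not all windows followed these cases. Those of GLB1 and PFDN4 met regions of both factors without the motif, and a CAMK4 window held it and met FOSL2 alone. Both GLB1 summits and the FOSL2 summits at PFDN4 and CAMK4 lay outside these windows. Such windows therefore do not hold the sequence at those summits. Sequences are from RefSeq (GRCh38.p14), 5′ to 3′ on the strand of the gene, with the motif match TGAGTCA in capitals. The IL15RA line gives the 250 bases before a listed start, chr10:5977612-5977861 on the minus strand, and lay under regions of both factors. The SMAD3 line gives the 250 bases before an internal start, chr15:67125492-67125741 on the plus strand, also under both. The IL6R line gives 30 bases just after its start, chr1:154405363-154405392 on the plus strand, again under both. The TRAF6 line, chr11:36510273-36510522 on the minus strand, lay under a JUNB region alone, and the EMSY line, chr11:76444768-76445017 on the plus strand, under a FOSL2 region alone. Neither held the motif, and the EMSY summit lay 257 bp upstream of the start, just outside its line.
IL15RA: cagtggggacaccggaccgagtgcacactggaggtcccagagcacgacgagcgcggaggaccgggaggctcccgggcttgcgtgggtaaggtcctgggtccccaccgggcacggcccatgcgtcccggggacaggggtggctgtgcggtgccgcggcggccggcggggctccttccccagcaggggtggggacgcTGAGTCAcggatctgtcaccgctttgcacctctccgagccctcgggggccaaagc
SMAD3: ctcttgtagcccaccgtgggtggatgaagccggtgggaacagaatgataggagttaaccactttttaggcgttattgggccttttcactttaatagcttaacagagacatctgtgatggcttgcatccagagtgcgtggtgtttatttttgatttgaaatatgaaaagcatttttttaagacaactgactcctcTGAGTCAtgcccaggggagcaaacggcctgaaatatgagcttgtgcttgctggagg
IL6R: aggaccgtccgccgctcTGAGTCAtgtgcg
TRAF6: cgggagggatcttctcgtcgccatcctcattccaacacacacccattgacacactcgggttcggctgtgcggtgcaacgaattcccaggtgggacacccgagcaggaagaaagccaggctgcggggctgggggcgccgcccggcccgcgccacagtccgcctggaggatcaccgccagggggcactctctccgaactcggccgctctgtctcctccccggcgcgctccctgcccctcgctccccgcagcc
EMSY: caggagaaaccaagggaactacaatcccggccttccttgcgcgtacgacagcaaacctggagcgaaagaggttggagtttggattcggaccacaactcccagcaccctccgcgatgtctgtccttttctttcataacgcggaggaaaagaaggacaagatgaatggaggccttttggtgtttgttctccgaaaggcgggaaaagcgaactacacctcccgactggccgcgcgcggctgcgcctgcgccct

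FOSL2 and JUNB both bound near nearly all of the members. All 37 had a FOSL2 region in the window, where 96.4% of all protein-coding genes did, and 36 of 37 had a JUNB region, where 90.9% of all genes did. The same 36 had a region shared between the factors, meaning at least 1 bp in common, against 87.4% of all genes. The exception was ACTL9, an actin-like gene. These shares were near the background, so a region within 100 kb did not set the members apart. A FOSL2 region met the gene body itself in 25 of 37 members (59.4% of all genes) and a JUNB region in 22 of 37 (49.4%).

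With the 100 kb window, the amount of binding around the members was close to that of the median gene. Members had a median of 9 FOSL2 regions and 4 JUNB regions, against 9 and 5 for all protein-coding genes. Per Mb of window, the medians were 34.35 for FOSL2 and 17.62 for JUNB in members, against 34.63 and 19.67 in all genes. Each member was then ranked by regions per Mb among genes with a like number of other protein-coding genes in the window, since binding was denser where genes were denser. The median percentile of the members was 52.49 for FOSL2 and 47.68 for JUNB, where 50 is the middle of the like genes. In other settings it ranged from 48.88 to 57.24 for FOSL2 and from 45.45 to 63.18 for JUNB. For JUNB it was 60.4 with a 10 kb window, 57.81 with gene bodies alone and 63.18 among the 10000 regions of highest fold. FOSL2 regions were more numerous than JUNB regions in 36 of 37 members, against 85.1% of all genes, and TNIP1 had 7 of each.

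**Figure D1:**
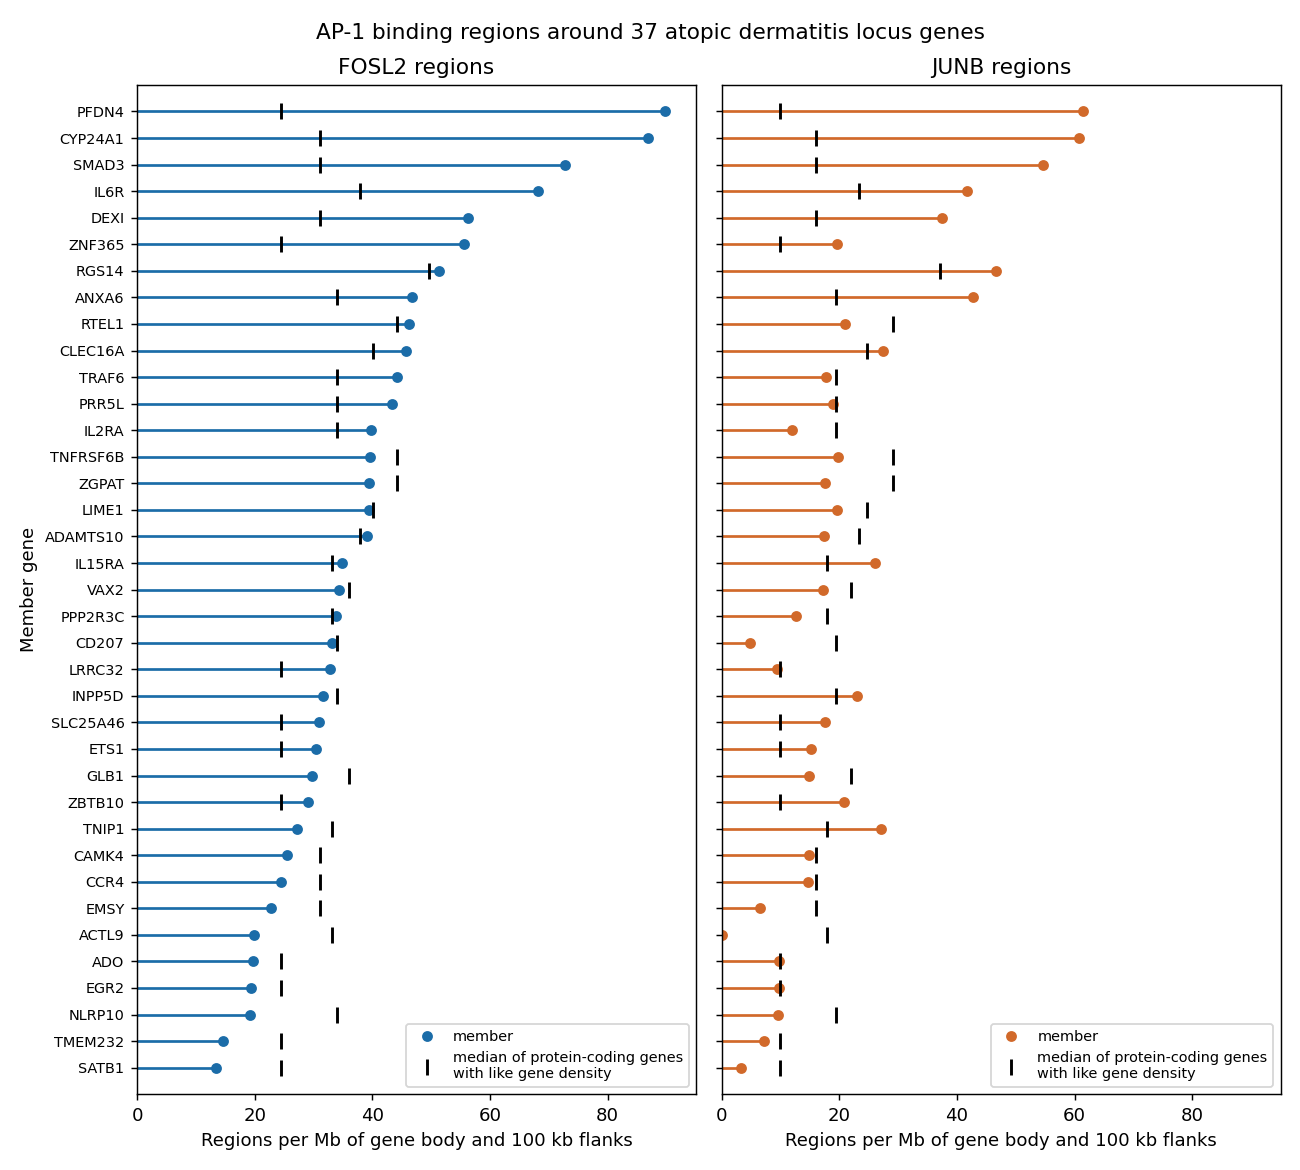
Regions per Mb of gene body and 100 kb flanks for each of the 37 members (points, x axis), with FOSL2 on the left and JUNB on the right, and the median of protein-coding genes with like local gene density (black ticks). PFDN4, CYP24A1, SMAD3 and IL6R reach 68.15 to 89.68 FOSL2 regions per Mb, and ACTL9 is at 0 for JUNB.

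A few loci stood apart from these medians. A member was called rich at percentile 90 or above and poor at 10 or below, which by construction takes 10% of all genes as rich and 10% as poor for FOSL2. The same rule takes 10% as rich and 11.4% as poor for JUNB. For FOSL2, 4 members were rich (PFDN4, CYP24A1, SMAD3 and IL6R) and 0 were poor. For JUNB, 3 were rich (PFDN4, CYP24A1 and SMAD3) and 1 was poor (ACTL9). With this window and ranking, the shares of 4 and 3 in 37 members are near the background. PFDN4 and CYP24A1 are neighbours whose windows hold mostly the same regions, and without their stretch the counts were 2 for FOSL2 and 1 for JUNB.

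**Figure D2:**
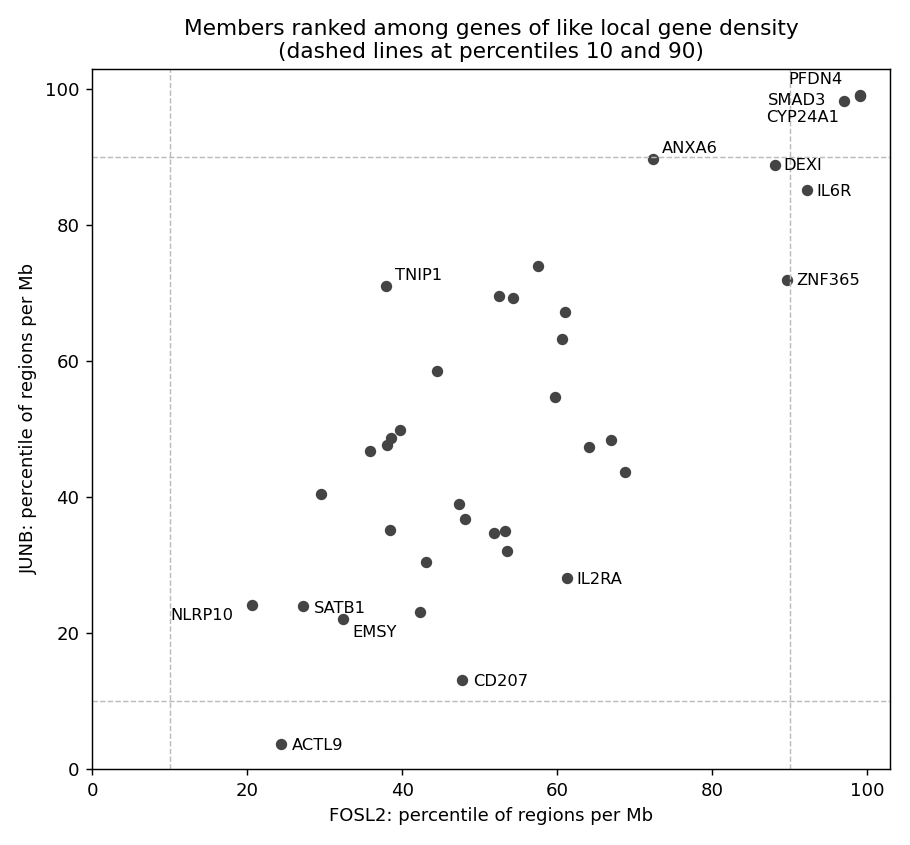
Percentile of each member among protein-coding genes of like local gene density, for FOSL2 (x axis) and JUNB (y axis), both in percent of genes. CYP24A1, PFDN4 and SMAD3 lie above 90 for both factors, IL6R for FOSL2 alone, and ACTL9 lies lowest for JUNB at 3.684.

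The stretch densest in FOSL2 regions was that of CYP24A1, which encodes the vitamin D 24-hydroxylase that inactivates active vitamin D, and PFDN4, a subunit of the prefoldin chaperone. The stretch, chr20:54043538-54319961, held 23 FOSL2 and 15 JUNB regions, of which 14 of each were shared. This came to 83.21 FOSL2 and 54.26 JUNB regions per Mb, the JUNB value just under that of the SMAD3 stretch, 54.62. CYP24A1 itself had 86.79 FOSL2 regions per Mb (percentile 99.11), against 31.03 for the median gene of like density. Its JUNB value was 60.75 per Mb (percentile 98.92), against 15.99. PFDN4 was at 89.68 for FOSL2 and 61.36 for JUNB, against 24.47 and 9.831. Among the 10000 FOSL2 regions of highest fold, the percentiles were 81.61 for CYP24A1 and 88.54 for PFDN4, both under 90.

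Most of this binding lay outside the gene bodies, and with the body alone CYP24A1 stood at percentiles 58.75 for FOSL2 and 74.69 for JUNB. CYP24A1, at chr20:54143538-54173986, held 1 region of each factor inside it, a shared one at 54148839-54149778 with a FOSL2 fold enrichment of 10.05 and a JUNB fold of 6.892, whose summits were 18 bp apart. Fold enrichment is the linear ratio of signal over background that the authors' peak caller gave. The strongest JUNB region of the stretch, at 54067415-54068257, had a fold of 10.54 and lay inside the neighbouring gene BCAS1, where the FOSL2 fold was 9.417. The strongest FOSL2 region, 54267110-54268154, was at 10.10, with JUNB at 8.545, and lay 47641 bp beyond the end of PFDN4.

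At the start of PFDN4 the factors overlapped without sharing a summit. The FOSL2 region, 54207707-54209311, had a fold of 5.514 and its summit 770 bp downstream of the start. The JUNB region, 54207676-54208176, had a fold of 3.821 and its summit 234 bp upstream. That JUNB summit was nearer the listed start of another gene, LOC124904937, at 45 bp. The summits were 1004 bp apart, against a median gap of 34 bp over all shared FOSL2 regions of the members. The rule of 1 bp in common counts such a pair as shared.

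SMAD3, the intracellular transducer of TGF-beta and activin signals, had the most regions of the 37 members. Its stretch, chr15:66965602-67295169, held 24 FOSL2 and 18 JUNB regions, and 16 of each were shared. Per Mb these were 72.82 and 54.62, at percentiles 96.96 and 98.21, against 31.03 and 15.99 for the median like gene. Among the 10000 FOSL2 regions of highest fold, its percentile was 42.95. Inside the gene the strongest was 67174541-67175576, with a FOSL2 fold of 10.55 and a JUNB fold of 8.809 and summits 7 bp apart. Before the gene, a run of 5 shared regions between 66997054 and 67050498 had FOSL2 folds of 4.962 to 8.704 and JUNB folds of 4.63 to 7.617.

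The starts of SMAD3 differed from one another. At the internal start at 67125742, the FOSL2 region (fold 6.30) peaked 4 bp away and the JUNB region (fold 5.673) 6 bp away. The TGAGTCA in the SMAD3 line printed above began 56 bases before that start. Its centre lay 57 bp from the FOSL2 summit and 59 bp from the JUNB summit. At the first listed start, 67065602, only JUNB was listed, at a fold of 2.838 and 175 bp downstream, and the nearest FOSL2 region was 4329 bp from it.

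IL6R, the receptor for interleukin 6, had 18 FOSL2 and 11 JUNB regions in chr1:154305343-154569450, and all 11 JUNB regions were shared. Its 68.15 FOSL2 regions per Mb (percentile 92.23) compare with 37.88 in like genes, and its 41.65 JUNB regions per Mb (percentile 85.09) with 23.32. The FOSL2 rank fell under 90 with a window of 200 kb (79.71) or the gene body alone (86.1). None of its FOSL2 regions was among the 10000 of highest fold. Its rank in that setting, 19.45, is the value shared by all like genes with no such region. A broad shared region, 154404861-154406620 for FOSL2, covered its start, with a fold of 6.993 for FOSL2 and 5.648 for JUNB. Its motif began 37 bases after the start, and the centre of the motif lay 3 bp from the FOSL2 summit and 45 bp from the JUNB summit. The strongest JUNB region, at 154417977-154418951 inside the gene, had a fold of 8.72 where FOSL2 had 6.599. The strongest FOSL2 region lay in the next gene, SHE, at 154483961-154485022, with 9.497 for FOSL2 and 7.374 for JUNB.

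**Figure D3:**
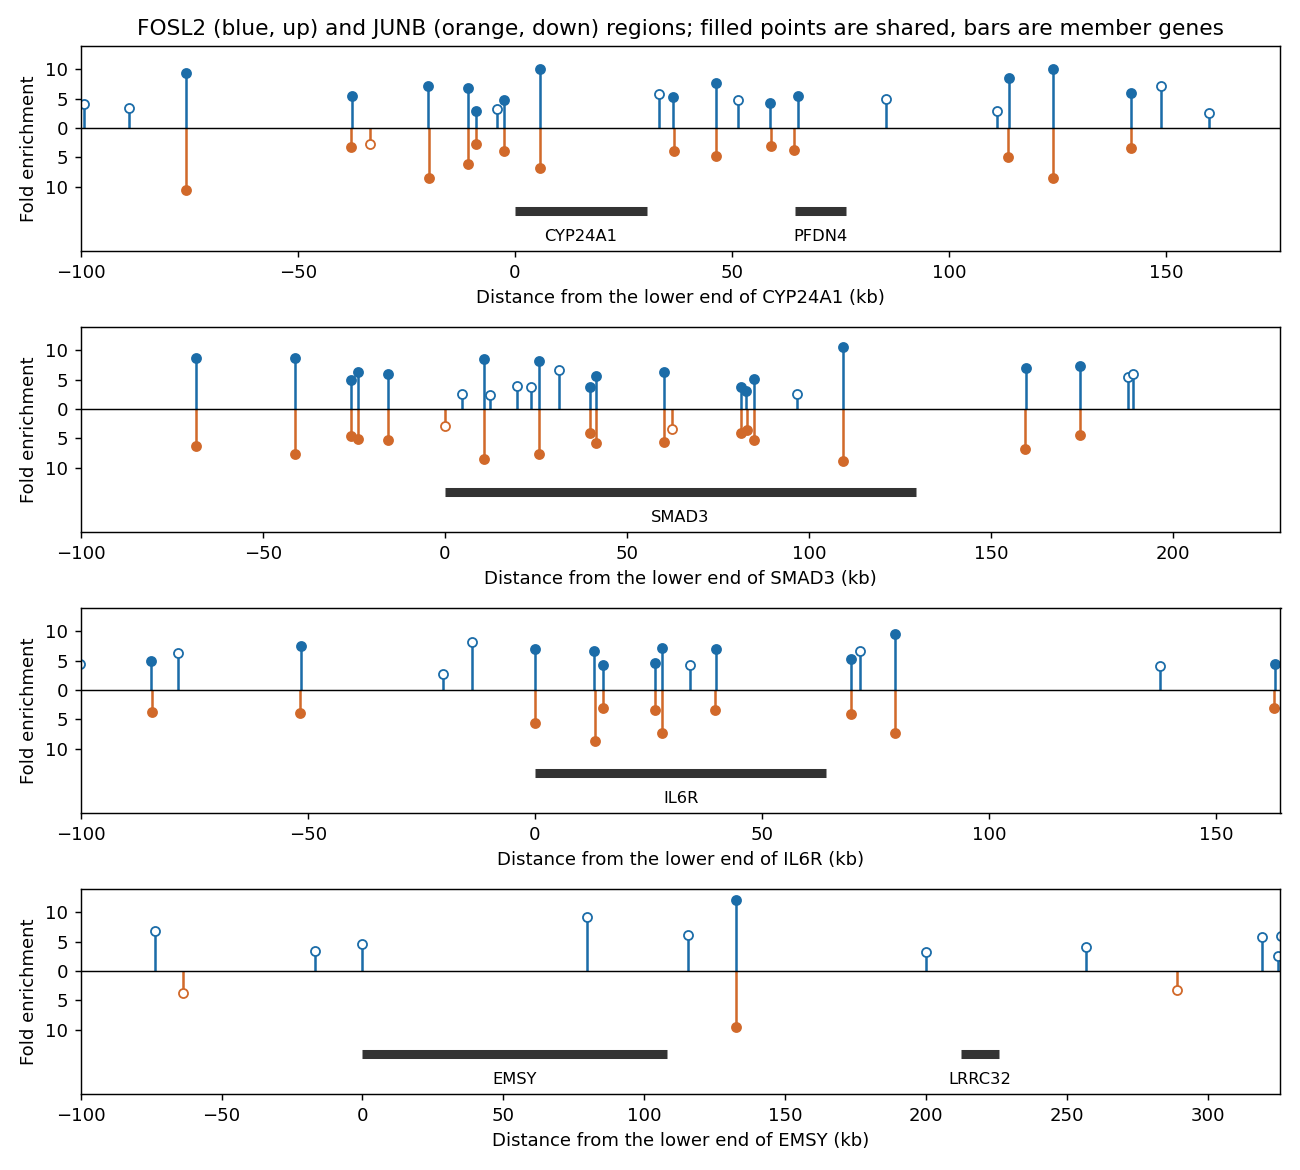
Fold enrichment (y axis, FOSL2 upward in blue and JUNB downward in orange) of each region at its distance in kb from the end of the gene with the lower coordinate (x axis), for the stretches of CYP24A1 and PFDN4, SMAD3, IL6R, and EMSY and LRRC32. Filled points are regions shared by both factors and black bars are member genes; SMAD3 and CYP24A1 have many filled points, while EMSY and LRRC32 have 1 for each factor.

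Receptors other than IL6R ranged widely. Over all 7 receptor genes the median was 34.81 FOSL2 and 14.66 JUNB regions per Mb, and IL6R was the only 1 rich for either factor. IL15RA, the receptor chain that presents interleukin 15, had 8 FOSL2 and 6 JUNB regions, 5 of each shared. The region over its start at 5977611 was its strongest for JUNB and the next strongest for FOSL2, at chr10:5977198-5978257 with a FOSL2 fold of 10.87 and at 5976837-5978051 with a JUNB fold of 8.81. The motif in the IL15RA line printed above began 55 bases before this start. Its centre lay 58 bp from the FOSL2 summit and 26 bp from the JUNB summit. Another listed start of IL15RA, at 5968928, also held TGAGTCA in its window and met no region.

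IL2RA, the alpha chain of the interleukin 2 receptor, shares part of that window. It had 10 FOSL2 and 3 JUNB regions, and all 3 JUNB regions were shared. Inside the gene itself lay 1 FOSL2 region, with a fold of 4.463, and 0 JUNB regions. CCR4, a chemokine receptor of skin-homing T cells, had 5 FOSL2 and 3 JUNB regions and none in its body. The nearest to it was a shared region at chr3:32945042-32945557, 6335 bp away, with a FOSL2 fold of 10.66 and a JUNB fold of 3.454.

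CD207, which encodes langerin of Langerhans cells, was low for JUNB. It had 7 FOSL2 regions and 1 JUNB region, at percentiles 47.75 and 13.08, with none inside the gene. TNFRSF6B, a decoy receptor for FAS ligand, is followed by a shared region inside the next gene, ARFRP1, at chr20:63698751-63699898, just past TNFRSF6B, with 10.88 for FOSL2 and 6.836 for JUNB. LRRC32, which holds latent TGF-beta on the cell surface, had 7 FOSL2 and 2 JUNB regions and is described with EMSY below.

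The 10 signalling genes had a median of 36.56 FOSL2 and 19.32 JUNB regions per Mb, and SMAD3 was the only 1 of them that was rich. TRAF6, an adaptor and ubiquitin ligase of interleukin 1 and Toll-like receptor signalling, had 10 FOSL2 and 4 JUNB regions. A JUNB region without FOSL2 sat on its start, at chr11:36509671-36510531 with a fold of 4.104 and its summit 3 bp from the start. This is the start whose sequence, printed above, lacks TGAGTCA. Inside TRAF6 a shared region at 36500044-36501171 had a FOSL2 fold of 11.76 and a JUNB fold of 7.565. PRR5L, which acts with the TOR complex, had 16 FOSL2 and 7 JUNB regions, including a FOSL2 region without JUNB just past its end, with a fold of 4.755 and its summit 547 bp beyond.

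TNIP1, which restrains NF-kappaB signalling together with TNFAIP3, was the only member with as many JUNB as FOSL2 regions. It had 7 of each, 5 of each shared. For JUNB it stood at percentile 71.08 and for FOSL2 at 37.94. All 5 of its shared regions lay inside the gene, with FOSL2 folds of 4.989 to 8.882 and JUNB folds of 2.868 to 6.989. RGS14, a regulator of G protein signalling in a gene-dense window, had 11 FOSL2 and 10 JUNB regions, at percentiles 52.49 and 69.54, with 51.24 FOSL2 and 46.58 JUNB regions per Mb.

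INPP5D, a lipid phosphatase of blood cells known as SHIP1, had 11 FOSL2 and 8 JUNB regions, and all 8 JUNB regions were shared. The strongest JUNB region of all members was in this window, at chr2:232988109-232989165 inside the neighbour NGEF, with a fold of 11.33 where FOSL2 had 9.886. Within INPP5D lay 1 shared region, at 233067088-233067739, with 10.8 for FOSL2 and 5.338 for JUNB. Its fold stood at percentile 93.61 of the FOSL2 list and 59.14 of the JUNB list, while the NGEF region stood at 88.55 and 99.22. CAMK4, a calcium and calmodulin dependent kinase of lymphocytes and neurons, had 12 FOSL2 and 7 JUNB regions, and only 3 of each were shared. The strongest of these was inside the gene at chr5:111366703-111367854, with 10.71 for FOSL2 and 10.67 for JUNB. At its first listed start FOSL2 was listed alone with a fold of 3.901 and its summit 284 bp upstream.

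PPP2R3C, a regulatory subunit of protein phosphatase 2A, had 8 FOSL2 and 3 JUNB regions, and its 3 shared regions lay in the neighbour PRORP with FOSL2 folds of 10.89 to 11.97 and JUNB folds of 7.559 to 8.731. LIME1, a membrane adaptor of lymphocytes, had 8 FOSL2 and 4 JUNB regions and lies with RTEL1, ZGPAT and TNFRSF6B. NLRP10, a NOD-like receptor expressed in skin, had 4 FOSL2 and 2 JUNB regions, and none of them met the gene. Its shared region, at chr11:7901325-7901983, had 9.156 for FOSL2 and 6.416 for JUNB and lay nearest the olfactory receptor gene OR10A6. Its other JUNB region was 121 bp from the gene EIF3F, with a fold of 6.371 and no FOSL2.

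Genes for transcription and chromatin proteins had the lowest medians of the role groups for FOSL2, 29.09 per Mb over 7 genes (median percentile 42.35), and 15.21 per Mb for JUNB (38.98). None of the 7 was rich or poor for either factor. SATB1, a chromatin organiser of T cells and epidermis, was the sparsest member for FOSL2, with 4 FOSL2 and 1 JUNB regions, or 13.32 and 3.331 per Mb. Its shared region, chr3:18294887-18295673, had 9.466 for FOSL2 and 5.181 for JUNB and lay 50053 bp from the gene. The 2 FOSL2 regions inside SATB1 were weaker, at 3.475 and 4.314. EGR2, an early growth response factor, shares its stretch with ADO, a thiol dioxygenase, and both had 4 FOSL2 and 2 JUNB regions. Of those JUNB regions, 1 was inside EGR2 without FOSL2, at chr10:62817677-62818217 with a fold of 5.167.

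EMSY, a BRCA2-binding nuclear protein, and LRRC32 lie on either side of a gap that carried the strongest region of their stretch. That shared region, chr11:76576950-76578009, had a FOSL2 fold of 12.09 and a JUNB fold of 9.567, with summits 6 bp apart, and lay 24387 bp past the end of EMSY. It was the only shared region among 11 FOSL2 and 3 JUNB regions in the stretch. At the start of EMSY, FOSL2 was listed alone, at 76444327-76445023 with a fold of 4.614 and its summit 257 bp upstream. That summit was nearer the listed start of another gene, EMSY-DT, at 81 bp. A further FOSL2 region inside EMSY had a fold of 9.292, and the nearest JUNB region was 51713 bp from it.

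ETS1, an ETS family factor, had 10 FOSL2 and 5 JUNB regions, and all 5 JUNB regions were shared and lay inside the gene. Its strongest FOSL2 region was not shared. It lay at chr11:128448143-128449349, 10071 bp from the gene, with a fold of 11.62, and the nearest JUNB region was 22662 bp away. ZBTB10, a zinc finger factor, had 7 FOSL2 and 5 JUNB regions, and all 5 JUNB regions were shared. The strongest for FOSL2, chr8:80560646-80561603, had 11.86 for FOSL2 and 5.652 for JUNB and lay 34770 bp from the gene. The strongest for JUNB, 80534205-80534976, had 10.83 for FOSL2 and 8.243 for JUNB. VAX2, a homeobox factor of the eye, had 8 FOSL2 and 4 JUNB regions, and ZGPAT, a zinc finger repressor, had 9 FOSL2 and 4 JUNB regions. ZGPAT had a JUNB region alone by its listed start at 63708039, with a fold of 3.38 and its summit 66 bp upstream.

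The other 13 members are enzymes, chaperones and genes of mixed or little-known function, with a median of 45.7 FOSL2 and 19.61 JUNB regions per Mb. CLEC16A, which takes part in autophagy, is a long gene with 14 FOSL2 regions meeting its body. The strongest was shared, at chr16:11132955-11134009, with 11.33 for FOSL2 and 10.23 for JUNB. Its neighbour DEXI, a small gene of unclear function, had 12 FOSL2 and 8 JUNB regions, at percentiles 88.04 and 88.82, and none met its body. The strongest JUNB region of the DEXI window lay inside CIITA, the activator of MHC class II genes, at 10876528-10877765, with a fold of 10.12 where FOSL2 had 5.324.

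ANXA6, a calcium-dependent membrane-binding annexin, had the strongest FOSL2 region of all members, chr5:151202478-151203421, with 12.41 for FOSL2 and 9.941 for JUNB. It lay inside the neighbour CCDC69, and no FOSL2 region met ANXA6 itself, where 1 JUNB region had a fold of 3.046. The next strongest FOSL2 region was inside TMEM232, a transmembrane protein gene, at chr5:110478698-110479548, with 12.35 for FOSL2 and 6.595 for JUNB. TMEM232 is long, so its 8 FOSL2 and 4 JUNB regions came to 14.51 and 7.253 per Mb. SLC25A46, a mitochondrial outer membrane protein, lies on the plus strand and overlaps the 5′ end of TMEM232, which lies on the minus strand. A JUNB region without FOSL2, chr5:110738495-110739622, covered the end of the TMEM232 gene body at 110738954 and the listed SLC25A46 start at 110739007. Its fold was 4.063 and its summit lay 113 bp downstream of that start. The SLC25A46 gene body begins at 110738145, outside the region. The listed start window of TMEM232, with its start at 110726671, met no region.

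ZNF365, a zinc finger protein of genome stability, was nearly rich for FOSL2 at percentile 89.66, with 17 FOSL2 regions, and stood at 71.91 for JUNB with 6 regions. All 6 JUNB regions were shared. Its start held FOSL2 alone, at a fold of 3.226, and all 17 of its FOSL2 folds were at or under 8.842. RTEL1, a telomere helicase, had 11 FOSL2 and 5 JUNB regions and held the strongest of its stretch, chr20:63681876-63683203, with 11.29 for FOSL2 and 10.25 for JUNB. GLB1, the lysosomal beta-galactosidase, had 10 FOSL2 and 5 JUNB regions, and all 5 JUNB regions were shared. Its start window met the edge of a shared region, with a FOSL2 fold of 3.834 and a JUNB fold of 5.652. The summits lay 495 and 676 bp upstream of the start, 181 bp apart.

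ACTL9 and ADAMTS10, a secreted protease of the matrix, share a stretch on chromosome 19. ACTL9 had 4 FOSL2 regions and 0 JUNB regions, at percentiles 24.4 and 3.684. None of the 4 was shared, and their folds were 2.636 to 5.033. ADAMTS10 had 9 FOSL2 and 4 JUNB regions, all 4 of the JUNB regions shared, with at most 9.723 for FOSL2 and 5.634 for JUNB. The region inside ADAMTS10 had 8.217 for FOSL2 and 3.697 for JUNB.

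Taking the 279 and 157 regions as a whole, most JUNB regions were also FOSL2 regions. Of the FOSL2 regions, 131 were shared, or 46.95% (95% Wilson interval 41.18 to 52.81), against 41.15% in the whole FOSL2 list. Of the JUNB regions, 132 were shared, or 84.08% (77.55 to 88.98), against 78.48% in the whole JUNB list. The FOSL2 list share lies just under the lower bound for the members and the JUNB share lies within the interval. The intervals cover counting error only, and neighbouring regions are not independent. In 12 of the 36 members with a JUNB region, every JUNB region was shared, which held for 26.5% of all genes with a JUNB region. Each of the 23 stretches had at least 1 shared region and more FOSL2 than JUNB regions. Across the 23 stretches, regions per Mb of the factors had a Spearman correlation of 0.875, as a description, since a shared region counts for both.

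Shared regions had higher fold enrichment than single ones in both lists. For FOSL2 the median was 7.874 in shared and 4.388 in single regions of the members, against 7.855 and 4.404 in the whole list. For JUNB it was 5.326 in shared and 3.537 in single regions, against 5.307 and 3.446. The median over all member regions was 5.70 for FOSL2 (interquartile range 3.968 to 8.082) and 5.159 for JUNB (3.776 to 6.595), against 5.559 and 4.794 in the whole lists. Fold values are set beside each other within a list, since each list has its own background. Summits of shared FOSL2 regions lay a median of 34 bp from the JUNB summit (31 bp in the whole list), and 69.47% were within 50 bp (66.92%).

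Counted by region, strong regions took a share of the members' regions near that of the whole lists. By region, 27 of 279 FOSL2 regions (9.677%) and 19 of 157 JUNB regions (12.1%) were in the top 10% of their list. A FOSL2 region in that top 10%, at a fold of 10.12 or more, lay in the window of 23 of 37 members, where 51.2% of all genes had one, and in 16 of 23 stretches. A JUNB region in its top 10%, at 8.272 or more, lay in the window of 21 of 37 members, where 35.5% of all genes had one, and in 13 of 23 stretches. Counted by member, both were above the share of all genes, by more for JUNB than for FOSL2. Several members share the same strong region, as TNFRSF6B, RTEL1, ZGPAT and LIME1 do, so the counts over members are not of separate regions. No share over all genes was computed for stretches.

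**Figure D4:**
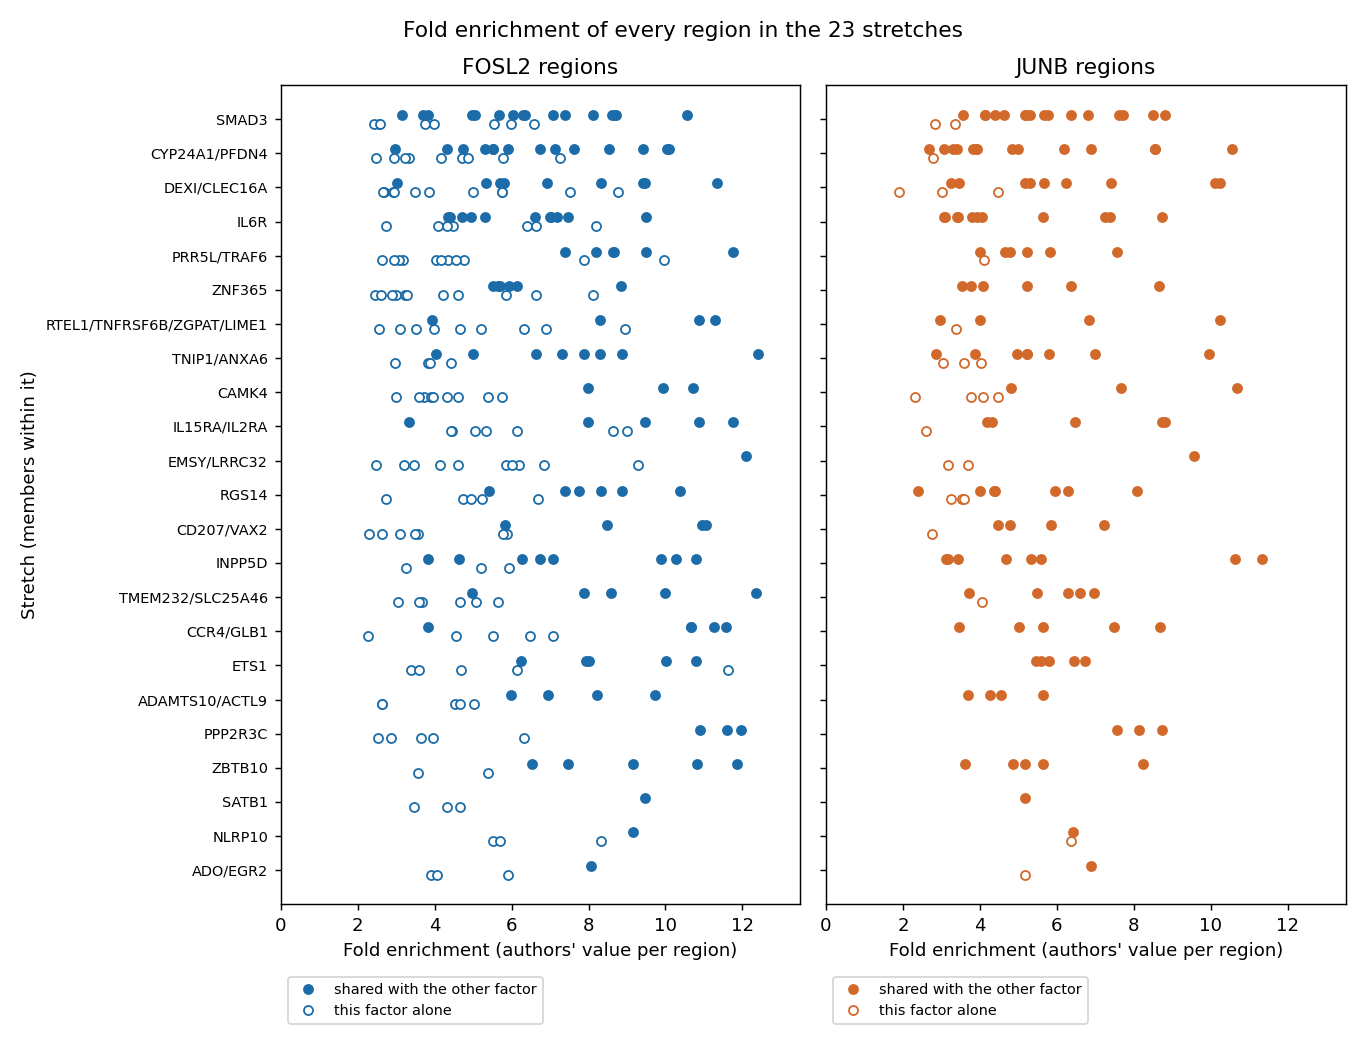
Fold enrichment (x axis, the authors' value) of every FOSL2 region (left) and JUNB region (right) in the 23 stretches, with filled points for regions shared by both factors and open points for regions of 1 factor. The highest values, 12.41 for FOSL2 and 11.33 for JUNB, are filled, and open JUNB points reach 6.371.

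The regions were spread over the genes and the space between them. Of FOSL2 summits, 98 (35.13%) lay inside a member, 65 (23.3%) inside another protein-coding gene, 70 (25.09%) between genes nearest a member and 46 (16.49%) nearest another gene. Of JUNB summits, 60 (38.22%) lay inside a member, 40 (25.48%) inside another gene, 32 (20.38%) between genes nearest a member and 25 (15.92%) nearest another gene. Exons and introns could not be told apart with the gene table used. A region within 1 kb of an end of the gene was seen in 10 of 37 members for FOSL2 (31.2% of all genes) and 11 of 37 for JUNB (29.3%).

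At the starts themselves, the 31 members with a listed 300-base start window met a FOSL2 region in 8 genes (22.9% of all genes with such a window) and a JUNB region in 8 (24.9%). Both factors met the same start window in 5 of these 31 genes, IL6R, IL15RA, GLB1, SMAD3 and PFDN4. This held for 2092 of 15812 protein-coding genes with such a window, so the members were near the background. Either factor was present in 11 of the members, and no share over all genes was computed for that count. The next counts take listed starts of any gene, also neighbours and noncoding genes, and not those of the members alone. They leave out chromosome 8, which had no listed start. Shared JUNB regions in the members' windows had a summit within 1 kb of such a start in 16 of 127 (12.6%), against 9.694% of shared regions in the whole list. JUNB regions without FOSL2 did so in 9 of 25 (36%, Wilson interval 20.25 to 55.48), against 28.28% of such regions in the whole list. For FOSL2 the shares were 15 of 126 shared regions (11.9%) and 13 of 146 single ones (8.904%), against 9.656% and 5.779%. LRRC32, ETS1, ZBTB10, CYP24A1, VAX2 and NLRP10 had no start window in the table.

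The motif TGANTCA, read on both strands, stood in 6 of 54 start windows of the members (11.11%), against 6.149% of 22132 windows of all protein-coding genes. These 6 belong to 4 genes, IL6R, IL15RA, SMAD3 and CAMK4, and 2 of the IL15RA windows overlap and hold the same match. Over all genes, the motif was in 15.11% of windows under regions of both factors, 10.43% under FOSL2 alone, 2.811% under JUNB alone and 4.726% under neither. With the related motif TGACGTCA added, the members' count was 7 of 54 (12.96%), against 8.359%, and the added window was that of ACTL9, which met no region. A match in these letters is a description and not a binding site.

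For comparison, 17 other genes of atopic dermatitis loci, among them FLG, IL13 and STAT3, had medians of 33.31 FOSL2 and 17.96 JUNB regions per Mb and median percentiles of 42.24 and 48.07. STAT3 was rich for both, at percentiles 92.19 and 94.55, and IL2, a T cell cytokine, had 2 FOSL2 and 0 JUNB regions. Markers of cell types were ranked in the same way, by position only, which does not show which cells were used. The 6 keratinocyte markers had median percentiles of 90.47 for FOSL2 and 94.66 for JUNB, and 3 and 4 of them were rich. KRT14 and KRT15, rich for both factors, are near each other and their windows overlap. The median was 62.56 and 77.67 for 4 T cell markers, 47.75 and 23.42 for 3 Langerhans cell markers and 51.51 and 29.72 for 3 melanocyte markers. Single markers varied within these groups. For FOSL2, KRT5 was at 66.49, while the T cell marker PTPRC was at 96.3 and the melanocyte marker PMEL at 93.46. The 37 members, at 52.49 and 47.68, lay under the keratinocyte and the T cell markers for both factors. They lay over the Langerhans cell and melanocyte markers.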

How the data were processed

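FOSL2 and JUNB binding was measured by ChIP-seq with ChIPmentation libraries in HaCaT cells, per the labels, with 3 libraries per factor. The submitters' processing notes name Bowtie2, SAMtools 1.8, Picard 1.89, MACS2, deepTools and the build hg38, without order or options. For the peak-calling control, for how libraries were combined and for depth, the sources used here give nothing. Per factor, 1 list of narrow peaks named a conservative overlap was deposited, and it stands for the 3 libraries together. The deposited fold enrichment is a linear ratio, the deposited −log10 p and −log10 q are per region, and the deposited score is a whole number that follows the −log10 p.

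From the lists, regions on the autosomes and X were kept (1 FOSL2 row left out). Gene positions came from RefSeq GRCh38.p14, which shares its coordinates with hg38, and all 37 members matched by symbol. Windows reached 100 kb past each gene body. Percentiles are mid-ranks among genes in the same of 9 classes of neighbour number. No test was made, because each factor has 1 list. Regions named one by one mostly followed a rule: rich or poor loci, the highest and lowest densities and folds, and regions within 1 kb of a gene end. Regions of some other members, such as ETS1 and CCR4, were named outside that rule. The counting was checked on simulated data. Python 3.11.15, numpy 2.4.6, pandas 2.3.3, scipy 1.17.1 and matplotlib 3.10.9 were used. The members, gene lists and comparisons were chosen with earlier results of these data known. Genome sequence was not used here, so motifs were sought in listed start windows alone, not at summits. Risk variants were not analysed here.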

Additional observations from a re-analysis of the deposited data

How the results depend on the processing

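No paired analysis was possible because each factor has 1 list for its 3 libraries, and for the same reason no library could be left out. Over the alternatives, 141 values stayed within their tolerance and 40 did not, with 0 reversed. The tolerance was 1.5 times for a count, the 95% interval for a share or a median, and the same side of 90 for a percentile, so a count could fall by up to that factor and stay within it. Every median percentile over the members counted as within tolerance, but staying on 1 side of 90 says little about values near 50. The JUNB median percentile, 47.68 in the main setting, ranged from 45.45 (density within 500 kb) to 63.18 (10000 regions of highest fold). With a 10 kb window it was 60.4 and with gene bodies 57.81. The FOSL2 one, 52.49 in the main setting, ranged from 48.88 to 57.24. With regions of −log10 q of at least 10 kept, the median fold was 6.266 for FOSL2 and 5.673 for JUNB and the JUNB shared share 92.17%. With the 10000 regions of highest fold, the members held 35 FOSL2 and 40 JUNB regions, with median folds of 10.87 and 8.186 and shared shares of 68.57% and 60%. The strongest region of each member had median folds of 10.87 and 8.681. With gene bodies alone, there were 102 FOSL2 and 63 JUNB regions, and 22 members had a JUNB region (49.4% of all genes). In that setting 18 members had a shared region and the FOSL2 shared share was 52.94%. With a 10 kb window there were 132 and 78 regions, 23 members had a shared region and 7 were rich for JUNB. No share over all genes was given for shared regions in gene bodies or with the 10 kb window. The rule for rich takes about 10% of all genes in any setting, ties aside. With the 10 kb window 6 members were rich for FOSL2, so both counts of rich members lay above that share. With a 200 kb window there were 422 and 250 regions. Summits within 100 bp as the rule for sharing gave 39.78% and 70.7%, and a reciprocal overlap of 50% gave 75.16% for JUNB. Ranking by count of regions gave 6 rich members for JUNB. Leaving out the CYP24A1 and PFDN4 stretch, an alternative chosen after seeing the data, left 2 rich members for FOSL2 and 1 for JUNB. Among single genes, with the 10000 strongest regions the FOSL2 percentile was 81.61 for CYP24A1, 88.54 for PFDN4, 42.95 for SMAD3 and 19.45 for IL6R. The IL6R value is that of a gene with no region counted. IL6R was also under 90 for FOSL2 with gene bodies (86.1), a 200 kb window (79.71) and density within 500 kb (89.86), and reached 90 or more for JUNB with −log10 q of at least 10 (90.75), ranking by count (90.61) and a 10 kb window (93.3). The causes of these changes were not tested.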
